A study of Homo sapiens with 6 samples.

Results

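The 10 genes described here encode parts of the contractile actin cytoskeleton: the actin ACTA2, the calponin family members TAGLN, CNN1 and CNN2, the myosin light chain MYL9, the tropomyosins TPM1 and TPM2, the caldesmon CALD1, and the anchoring proteins VCL and ACTN1. They were taken by name as known targets of serum response factor (SRF), with earlier results of these data known. Measured values also served to pick a probe set for each. All 10 were on the array, among 19775 genes with a probe set of a single symbol, and 37 probe sets carried their symbols. Each gene is represented by its leading probe set, the one whose mean over all 6 arrays is highest.

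The cells were SK-N-AS, an established line from a human neuroblastoma, a tumour of the sympathetic nervous lineage, and every array came from this 1 line. Monolayer cells grew attached as a layer with no pretreatment. Sphere cells, also without pretreatment, grew as spheroids in medium lacking serum. iCSC cells spent 5 days as a monolayer in 2.5 uM 5AdC, a drug that blocks DNA methyltransferases, and then went into the same kind of spheroid culture. Each culture had 2 expression arrays, and the labels do not say whether these were separate cultures, so the spread between them may be technical. Spheroid growth and the medium without serum came together in both of these cultures and cannot be told apart.

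SRF is a transcription factor that binds a short DNA element called the CArG box. Its cofactors MRTFA and MRTFB are held back by free actin monomers, so that growth of actin filaments, attachment and serum signals raise SRF targets. In smooth muscle and in contractile fibroblasts the genes described here build stress fibres, bundles of actin and myosin that pull on the sites where a cell holds its support.

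Promoter sequences from RefSeq (GRCh38.p14) are shown for the 3 genes with the most distinct courses below, CNN2, TPM2 and ACTA2, to show where the SRF element occurs. Each runs 5′ to 3′ over the 250 bases before a transcription start. Capitals mark a CArG box or a near match of the same 10 bases with 1 C or G in its A and T core.
CNN2, chr19:1026358-1026607, plus strand: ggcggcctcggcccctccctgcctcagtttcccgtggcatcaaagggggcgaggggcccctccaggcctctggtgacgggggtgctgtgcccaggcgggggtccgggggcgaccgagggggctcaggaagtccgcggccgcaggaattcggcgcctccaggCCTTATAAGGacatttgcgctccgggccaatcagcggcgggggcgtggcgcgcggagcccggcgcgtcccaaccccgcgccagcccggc
TPM2, chr9:35690057-35690306, minus strand: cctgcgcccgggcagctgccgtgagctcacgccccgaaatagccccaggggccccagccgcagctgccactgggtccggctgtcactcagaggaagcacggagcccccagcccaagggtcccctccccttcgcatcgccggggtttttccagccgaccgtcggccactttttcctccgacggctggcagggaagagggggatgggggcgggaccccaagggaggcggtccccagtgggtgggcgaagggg
ACTA2, chr10:88952774-88953023, minus strand: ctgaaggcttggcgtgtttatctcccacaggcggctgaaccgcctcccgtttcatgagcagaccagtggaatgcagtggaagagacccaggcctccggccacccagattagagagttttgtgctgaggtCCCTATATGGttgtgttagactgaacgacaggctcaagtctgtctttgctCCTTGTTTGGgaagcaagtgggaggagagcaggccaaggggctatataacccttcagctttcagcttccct

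The CNN2 promoter holds the CArG box CCTTATAAGG, its first base 89 bases before the start. The ACTA2 sequence lies before the downstream of its 2 listed starts, inside the longer transcription unit. It holds the near matches CCCTATATGG and CCTTGTTTGG, which begin 121 and 71 bases before the start. The TPM2 window holds neither form. Over windows of 300 bases (250 before and 50 after a start, both strands), 8 of the 10 genes had at least 1 window and 16 windows in all. A CArG box occurred in 2 of these 16 windows, those of CNN2 and of 1 of the 4 ACTN1 starts, where it reads CCAAAAATGG. A near match occurred in 2 of the 16, that of ACTA2 shown above and 1 of CALD1, where CCTAAAGAGG begins 26 bases before the start. Among all 35116 windows of the table, 1.29% held a CArG box and 6.94% a near match. No match says only that these letters are not in this window. The TEAD motif GGAATG, the element of the Hippo pathway's partner factors, was present in windows of 4 of the 8 genes (ACTA2, ACTN1, CALD1 and VCL), against 16.7% of all genes with a window, and in 5 of the 16 windows, against 14.0% of all windows. The windows of the CNN2, TPM2 and ACTA2 starts shown hold 38, 24 and 6 CpG dinucleotides, against a median of 14. At least as many occur in 9.91%, 33.9% and 66.3% of all windows. The windows of the other listed start of TPM2 and of ACTA2 hold 30 and 18, and at least as many occur in 22.4% and 44.5%. DNA methylation was not measured.

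Levels are log2 signals and differences are log2 differences. Values under log2 5 were taken as background. Of the 10 genes, 7 passed the filter of log2 5 on at least 2 arrays and were tested with limma among 10459 genes, with Benjamini-Hochberg adjustment over all of them. TAGLN, CNN1 and MYL9 stayed under log2 5 on all 6 arrays in all 6 of their probe sets (3, 1 and 2). CNN1, the calponin of differentiated smooth muscle, lay between 2.57 and 2.60. MYL9, the regulatory light chain of smooth muscle myosin, lay between 2.18 and 2.26 in its leading probe set. TAGLN, an actin-binding protein abundant in smooth muscle, read 4.12 and 2.50 in Monolayer, 2.44 and 2.34 in Sphere, and 2.46 and 2.51 in iCSC. So these 3 genes were not measured above background in any culture, which gives no level and no change for them.

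**Figure D1:**
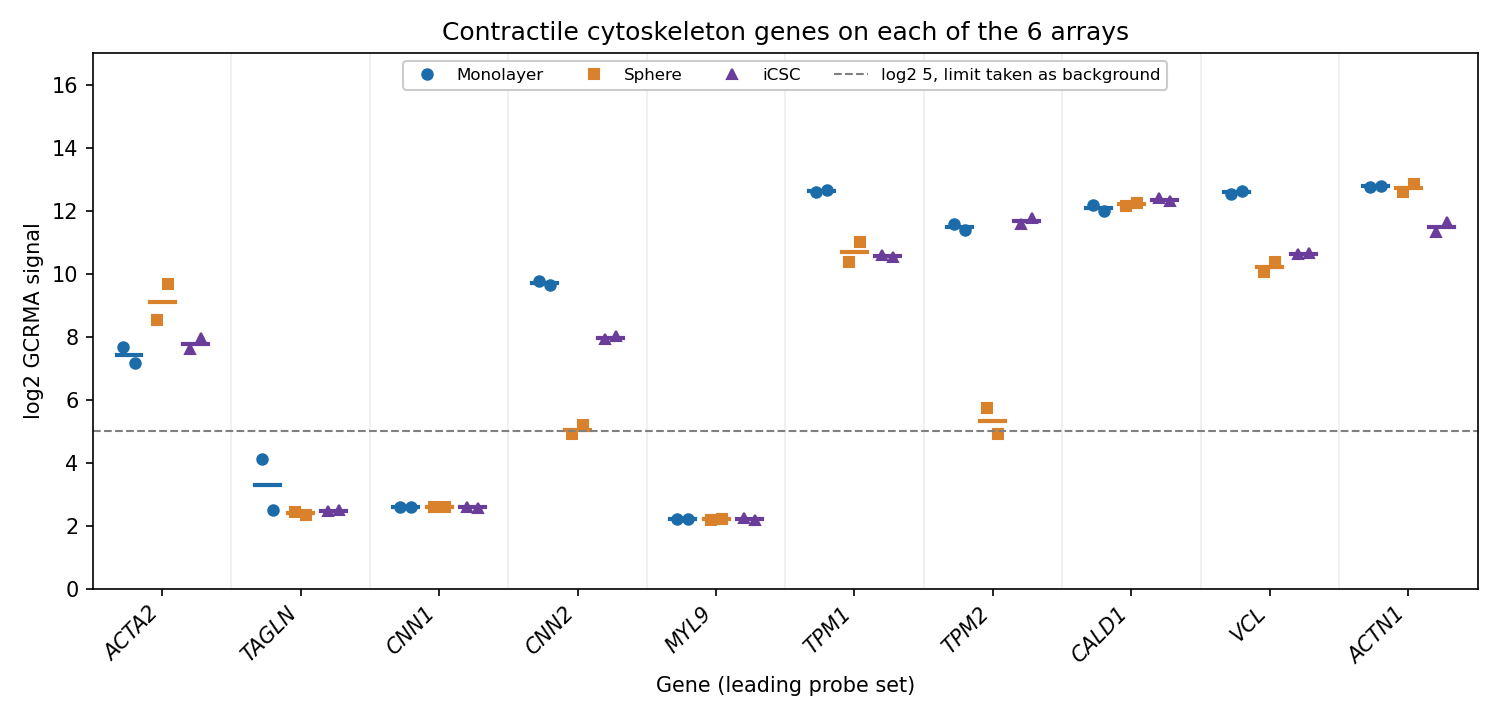
Log2 signal of the leading probe set of each of the 10 genes on each array (points, 2 per culture), with the mean of each culture (bars) and the limit taken as background (dashed line at log2 5). CNN2 and TPM2 sit near the limit in Sphere only, TAGLN, CNN1 and MYL9 lie under it on all arrays, and CALD1 stays between 12.00 and 12.38.

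Sphere against Monolayer asks what spheroid growth without serum changed. Among the 7 tested genes 4 fell and 1 rose, while CALD1 and ACTN1 did not pass the test. That is 5 called genes where 59.0% of all tested genes were called, 29.1% as lower and 30.0% as higher, so the number called is close to the background. By size, 3 of the 10 genes differed by more than 2 on the log2 scale, against 7.76% of all 19775 genes, background ones included. At this cut it was 2 against 4.91% in iCSC against Sphere and 1 against 6.30% in iCSC against Monolayer. Because the genes were chosen with earlier results known, these counts are a description only. The median difference over all 10 genes in Sphere against Monolayer was -0.48, against -0.02 over all genes. The middle values of the list were those of TAGLN (-0.91), under log2 5 on all arrays, and ACTN1 (-0.04). With every value under 5 set to 5 the median was -0.02.

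TPM2, a tropomyosin of contractile filaments, fell furthest in Sphere. Its signal was 11.56 and 11.38 on the Monolayer arrays, 5.72 and 4.92 on the Sphere arrays, and 11.57 and 11.76 on the iCSC arrays. Sphere thus sat at the edge of background, with 1 array under it, while both other cultures were far above and close to each other. The log2 difference, Sphere minus Monolayer, was -6.15 ± 0.26 (SE, n = 2 arrays each; limma, adjusted p = 4.83e-06), and only 0.889% of tested genes fell as far. With values under 5 set to 5 this is 69.2-fold.

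CNN2, the calponin of non-muscle cells, followed at a smaller distance. It read 9.75 and 9.65 in Monolayer, 4.91 and 5.20 in Sphere, and 7.92 and 8.01 in iCSC. The 3 cultures did not overlap, and iCSC lay between the others. From Monolayer to Sphere it changed by -4.65 ± 0.16 (limma, adjusted p = 2.50e-06), or 24.3-fold with values under 5 set to 5. CNN2 rests on 1 probe set of the x_at kind, whose probes can match other transcripts too.

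VCL, vinculin, which links adhesion sites to actin, and TPM1, the most widely expressed tropomyosin of stress fibres, fell by smaller amounts and stayed well above background. VCL read 12.53 and 12.64 in Monolayer, 10.04 and 10.36 in Sphere, and 10.61 and 10.66 in iCSC. Both spheroid cultures lay under both Monolayer arrays. VCL in Sphere differed from Monolayer by -2.39 ± 0.12 (limma, adjusted p = 1.11e-05), a 5.23-fold fall. TPM1 read 12.60 and 12.65 in Monolayer, 10.37 and 11.01 in Sphere, and 10.60 and 10.54 in iCSC, so that the iCSC arrays fell inside the range of the Sphere arrays. TPM1 in Sphere differed by -1.93 ± 0.19 (adjusted p = 0.000261), a 3.81-fold fall.

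ACTA2, the actin of smooth muscle and of contractile fibroblasts, moved the other way. It read 7.66 and 7.18 in Monolayer, 8.53 and 9.66 in Sphere, and 7.60 and 7.95 in iCSC. The Sphere arrays were the highest, and also differed most from each other. Sphere stood 1.68 ± 0.38 above Monolayer (limma, adjusted p = 0.00868), or 3.20-fold. It no longer passed without Monolayer replicate 2 (adjusted p = 0.0715) or without variance moderation (0.0872), over a range of 0.00402 to 0.0872, and the difference was 1.11 without Sphere replicate 2.

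CALD1, which binds actin and tropomyosin and restrains myosin, showed no called change. It read 12.18 and 12.00 in Monolayer and 12.14 and 12.25 in Sphere, with overlapping arrays. The difference was 0.11 (95% interval -0.11 to 0.33; limma, adjusted p = 0.337). ACTN1, the alpha-actinin that crosslinks actin in stress fibres, read 12.76 and 12.78 in Monolayer and 12.59 and 12.86 in Sphere. Its Sphere arrays bracket the Monolayer arrays, and the difference was -0.04 (interval -0.36 to 0.27; adjusted p = 0.813). Both intervals leave out a 2-fold change.

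**Figure D2:**
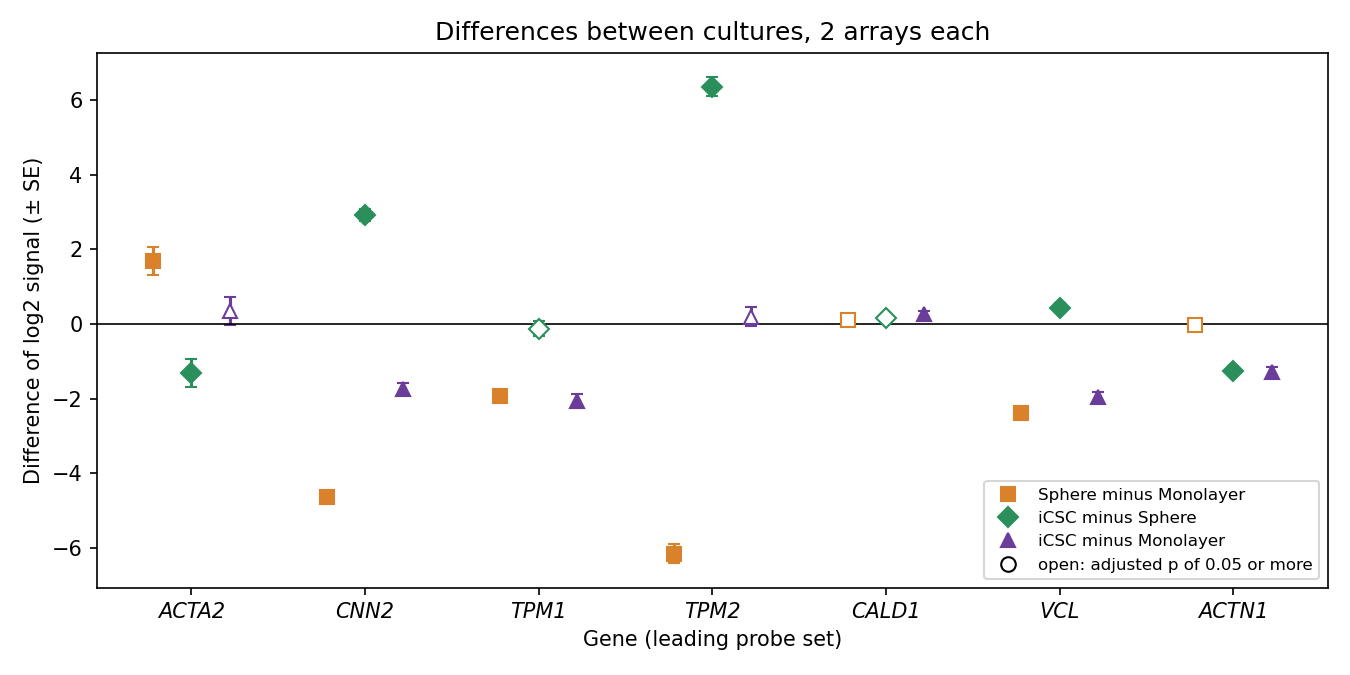
Difference of log2 signal between cultures for the 7 tested genes, with the standard error of the fit over 6 arrays; filled symbols passed an adjusted p of 0.05 and open symbols did not. TPM2 changed by -6.15 in Sphere against Monolayer and by 6.35 in iCSC against Sphere, while ACTN1 differed in the contrasts with iCSC and not in Sphere against Monolayer.

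The second comparison, iCSC against Sphere, sets spheroids with and without the 5AdC pretreatment side by side. Of the 7 tested genes, TPM2, CNN2 and VCL rose, ACTN1 and ACTA2 fell, and TPM1 and CALD1 did not pass. These are 5 called genes, against 38.5% of all tested genes called, 19.3% as higher and 19.2% as lower. The 10 genes had a median difference of 0.05, against -0.02 over all genes. This comparison shares the Sphere arrays with the previous one, so an error in them would push a gene's 2 differences in opposite directions.

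TPM2 rose by 6.35 ± 0.26 (limma, adjusted p = 9.97e-06), to the Monolayer level, and 0.306% of tested genes rose as far. The rise is 79.1-fold with values under 5 set to 5. CNN2 rose by 2.91 ± 0.16 (adjusted p = 3.88e-05), 7.27-fold at the same limit. VCL rose by 0.44 ± 0.12 (adjusted p = 0.0287). VCL failed the test in 9 of 16 alternatives, such as those without Monolayer replicate 1 (adjusted p = 0.0689), Monolayer replicate 2 (0.0691), Sphere replicate 1 (0.110), iCSC replicate 1 (0.0607) or iCSC replicate 2 (0.0832), and the range was 0.0168 to 0.123.

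ACTN1 read 11.33 and 11.63 in iCSC, under every array of the other cultures. It fell by 1.25 ± 0.13 from Sphere (limma, adjusted p = 0.000606) and by 1.29 ± 0.13 from Monolayer (adjusted p = 0.000334), 2.38-fold and 2.45-fold. From Sphere to iCSC, ACTA2 fell by 1.32 ± 0.38 (adjusted p = 0.0331), to 7.60 and 7.95, against 7.66 and 7.18 in Monolayer. That call was lost under 8 of 17 alternatives, among them without Sphere replicate 2 (adjusted p = 0.124), iCSC replicate 1 (0.125), iCSC replicate 2 (0.0656), Monolayer replicate 1 (0.0673) or Monolayer replicate 2 (0.0670), with a range of 0.0123 to 0.176. The ACTA2 difference was -0.76 without Sphere replicate 2. TPM1 differed by -0.13 (95% interval -0.60 to 0.34; adjusted p = 0.651). Without Sphere replicate 1, the TPM1 difference was -0.45 and passed (adjusted p = 0.0290, range 0.0290 to 0.925), and without Sphere replicate 2 it was 0.19. CALD1 read 12.38 and 12.32 in iCSC, 0.15 above Sphere (interval -0.06 to 0.37; adjusted p = 0.225).

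iCSC against Monolayer compares the pretreated spheroids with the culture they began from. These cultures differ both by the 5AdC pretreatment and by spheroid growth without serum, which this comparison alone cannot tell apart. TPM1, VCL, CNN2 and ACTN1 were lower and CALD1 was higher, which makes 5 called genes, against 55.6% of all tested genes called, 26.6% as lower and 29.0% as higher. TPM1 changed by -2.06 ± 0.19 (limma, adjusted p = 0.000251), VCL by -1.95 ± 0.12 (adjusted p = 3.75e-05) and CNN2 by -1.74 ± 0.16 (adjusted p = 0.000242). These are falls of 4.17-fold, 3.86-fold and 3.33-fold. CALD1 differed by 0.26 ± 0.09 (adjusted p = 0.0451). Its call was lost under 12 of 17 alternatives (range 0.0127 to 0.324), among them when any 1 of the 6 arrays was left out (0.0548 to 0.249) and with the replicate number as a block (0.0540). The 10 genes had a median difference of -0.42, against -0.03 over all genes, and 0 with values under 5 set to 5. The middle values here were those of TAGLN (-0.82) and CNN1 (-0.015), both under log2 5 on all arrays.

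TPM2 and ACTA2 did not differ between iCSC and Monolayer beyond the spread of the fit. The TPM2 difference was 0.19 (95% interval -0.42 to 0.81; limma, adjusted p = 0.557) and the ACTA2 difference 0.35 (interval -0.55 to 1.26; adjusted p = 0.464). The interval of TPM2 leaves out a 2-fold change and that of ACTA2 does not. In these leading probe sets the genes took separate courses. TPM2 was low in Sphere alone. TPM1 and VCL were low in both spheroid cultures, and ACTN1 was low in iCSC alone. CNN2 had a level of its own in each culture.

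Other probe sets of the same genes may read the same or other parts of their transcripts, and 16 of the 37 passed the filter. All 3 passing probe sets of TPM1 fell in Sphere and in iCSC against Monolayer, by 1.88 to 2.15 and by 1.89 to 2.12, and none was called between iCSC and Sphere (57.0%, 54.2% and 34.5% of the 18059 passing probe sets were called in the same order). The 3 of ACTN1 fell in iCSC against Sphere by 1.18 to 1.31 and against Monolayer by 1.26 to 1.49, with no call in Sphere against Monolayer. The 5 of CALD1 had no call in Sphere against Monolayer or iCSC against Sphere, while the leading one, 1 of the 5, was called between iCSC and Monolayer. ACTA2, CNN2 and VCL each had 1 passing probe set.

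The 2 passing probe sets of TPM2 disagreed. The leading one, 204083_s_at, gave the same level in Monolayer and iCSC. The other, 212654_at, read 4.29 and 3.78 in Monolayer, 2.71 and 2.69 in Sphere, and 8.35 and 7.93 in iCSC. By this probe set TPM2 was above background in iCSC alone, and at least 8.81-fold higher there than in Sphere or in Monolayer. It passed the filter only through its iCSC arrays. A test of iCSC against the other cultures is therefore no separate support, and is not given. Both probe sets were therefore higher in iCSC than in Sphere, and the second was also higher in iCSC than in Monolayer. Which transcripts each probe set reads is not given in the sources used here.

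**Figure D3:**
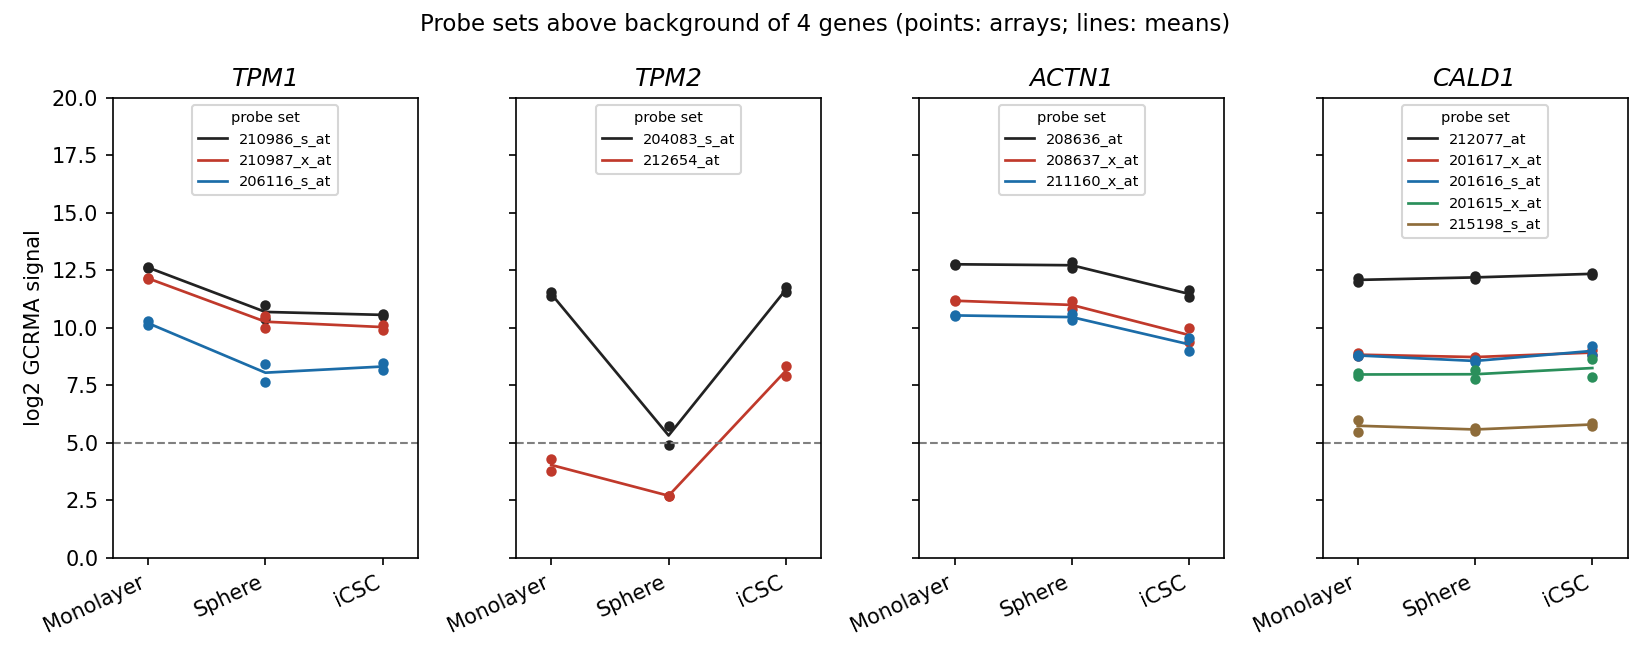
Log2 signal of all passing probe sets of TPM1, TPM2, ACTN1 and CALD1 in the 3 cultures (points are arrays, lines join the means, dashed line at log2 5). The 3 probe sets of TPM1 fall together, while 1 of the 2 of TPM2 is above the limit in iCSC only.

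Close relatives of these genes were measured from a list of 12 paralogs, of which 11 were analysed and 9 tested. Sphere against Monolayer had 2 that rose and 3 that fell, iCSC against Sphere had 2 and 2, and iCSC against Monolayer had 2 and 5. Of all tested genes 59.0%, 38.5% and 55.6% were called in the same order. Split by direction, 30.0%, 19.3% and 29.0% rose and 29.1%, 19.2% and 26.6% fell. TPM4, a short tropomyosin of non-muscle cells, fell beside TPM1, by 1.67 ± 0.13 in Sphere and 1.89 ± 0.13 in iCSC, both from 11.84 in Monolayer (limma, adjusted p = 8.31e-05 and 6.28e-05). ACTN4, the second non-muscle alpha-actinin, fell by 1.95 ± 0.10 in Sphere (adjusted p = 1.20e-05), where ACTN1 differed by -0.04. TAGLN2, the widely expressed transgelin, was low in iCSC, as ACTN1 was, with means of 12.26 (Monolayer), 12.16 (Sphere) and 11.14 (iCSC), a change of -1.02 ± 0.16 from Sphere to iCSC (adjusted p = 0.00322, and 0.0622 without variance moderation). TAGLN3, the transgelin of neurons, was under the limit in Monolayer (2.90) and read 9.33 in Sphere and 8.68 in iCSC, at least 20.2-fold and 12.9-fold higher (adjusted p = 7.63e-07 and 1.24e-06). CNN3, an acidic calponin, lay at 12.14, 11.89 and 11.50, and the call was in iCSC against Monolayer (-0.65 ± 0.15, adjusted p = 0.0110, range 0.000930 to 0.0888). That call failed without Monolayer replicate 1 (0.0616) or replicate 2 (0.0761). CNN3 in Sphere against Monolayer (-0.25, adjusted p = 0.190) passed without iCSC replicate 1 (0.0226) or replicate 2 (0.0222), and iCSC against Sphere (-0.39, adjusted p = 0.0848) passed without iCSC replicate 1 (0.00438).

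Of 11 actins and actin monomer-binding proteins, 9 were analysed and 7 tested. Sphere against Monolayer had none that rose and 5 that fell, iCSC against Sphere had 4 and 2, and iCSC against Monolayer had 2 and 4. The share of all tested genes called was 59.0%, 38.5% and 55.6% in the same order. ACTC1, the actin of heart muscle, was at background in Monolayer and Sphere and read 10.57 and 8.70 in iCSC. That is at least 24.9-fold above Monolayer and above Sphere by the mean of both arrays. ACTC1 passed the filter only through its iCSC arrays, so a test against the other cultures is no separate support and is not given. The bound was 13.0-fold without iCSC replicate 1 and 47.6-fold without iCSC replicate 2. CAP2, an actin monomer-binding protein, was low in Sphere, as TPM2 was, with means of 10.11 (Monolayer), 5.62 (Sphere) and 10.54 (iCSC) (-4.49 ± 0.14 and 4.92 ± 0.14, adjusted p = 1.52e-06 and 3.44e-06). TMSB4X, which binds actin monomers, changed by -2.10 ± 0.10 from Monolayer to iCSC (adjusted p = 1.15e-05). ACTB, the main cytoplasmic actin, was 15.52, 15.27 and 15.15. ACTG1 was not analysed here, because its probe sets carry several symbols.

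**Figure D4:**
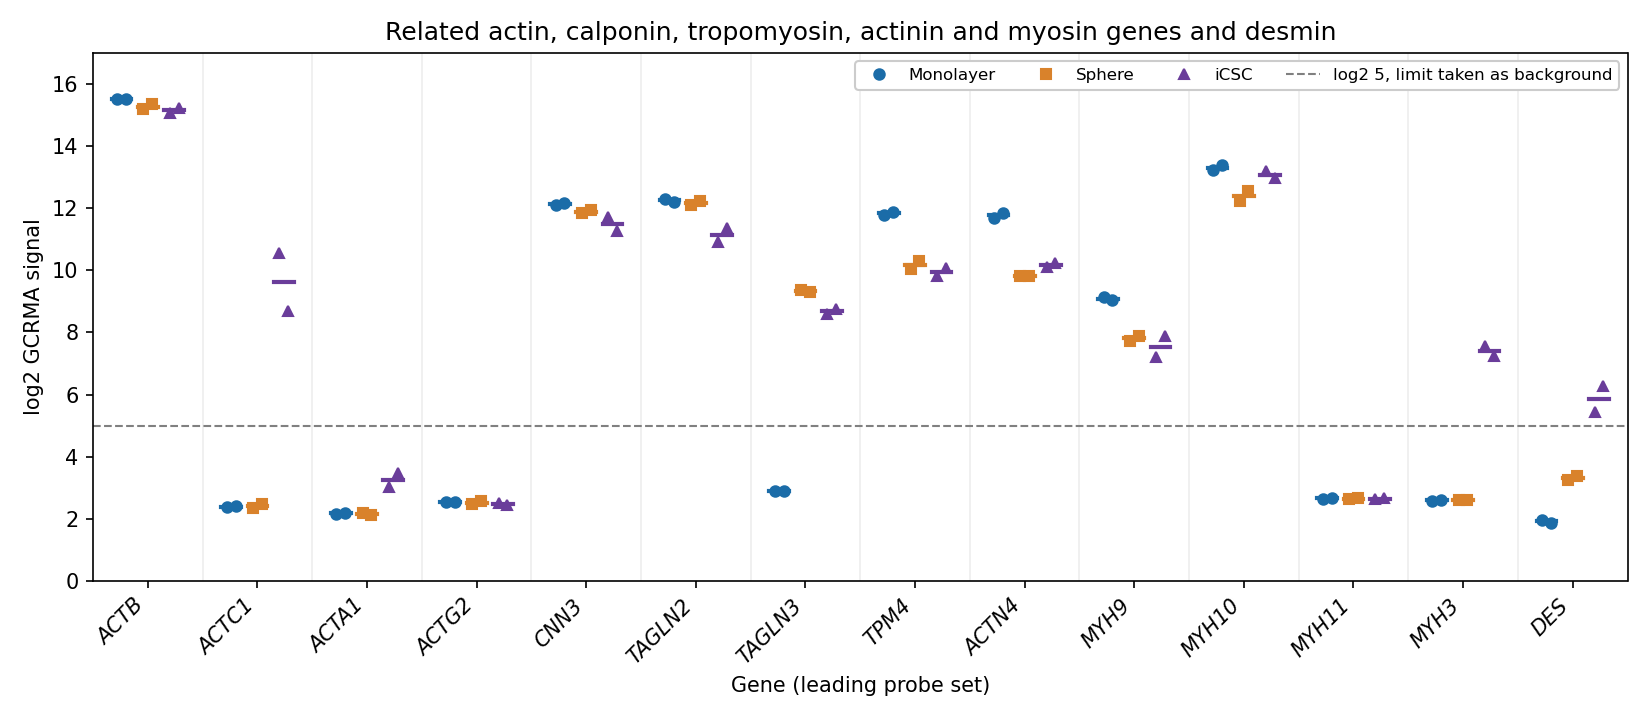
Log2 signal on each array (points, 2 per culture) and culture means (bars) for related actins, calponins, transgelins, a tropomyosin, an alpha-actinin, myosins and desmin, with the limit at log2 5 dashed. TPM4 and ACTN4 are lower in both spheroid cultures, TAGLN3 is above the limit only in these, and ACTC1, MYH3 and DES only in iCSC.

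Among SRF and its cofactors, 8 of 9 genes were tested. Sphere against Monolayer had 2 that rose and 3 that fell, iCSC against Sphere had 2 and none, and iCSC against Monolayer had 4 and 2. The share of all tested genes called was 59.0%, 38.5% and 55.6% in the same order. SRF itself had means of 8.03 (Monolayer), 7.16 (Sphere) and 7.50 (iCSC), a change of -0.86 ± 0.15 in Sphere (limma, adjusted p = 0.00252). In iCSC SRF was 0.52 under Monolayer (adjusted p = 0.0218, range 0.0106 to 0.123), a call that failed without either Monolayer array (0.0700 and 0.123) or either iCSC array (0.0505 and 0.0568). MRTFA differed by at most 0.05 between cultures, without a call. MRTFB rose by 0.68 ± 0.13 in iCSC against Monolayer (adjusted p = 0.00526). ELK4, a ternary complex factor that pairs with SRF, changed by -2.40 ± 0.14 in Sphere (adjusted p = 2.45e-05), while its relative ELK3 rose by 1.33 ± 0.23 (adjusted p = 0.00279, range 0.000291 to 0.0532). FHL2, an SRF target that can hold SRF back, fell short of log2 5 on both Sphere arrays and had means of 6.84 in Monolayer and 8.07 in iCSC, at least 3.58-fold and 8.38-fold higher (adjusted p = 0.000424 and 0.000125). MYOCD, the SRF cofactor of heart and smooth muscle, was at background on all 6 arrays.

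Focal adhesion and stress fibre proteins, where VCL and ACTN1 act, gave 17 tested genes of 22. Sphere against Monolayer had 2 that rose and 8 that fell, iCSC against Sphere had 7 and 4, and iCSC against Monolayer had 5 and 8. The share of all tested genes called was 59.0%, 38.5% and 55.6% in the same order. The median differences of the tested ones were -0.28, 0.50 and -0.37, against 0.0062, 0.012 and 0.020 over all tested genes. PALLD, a scaffold of actin bundles, and SVIL, which ties actin and myosin to the membrane, fell in Sphere by 2.49 ± 0.12 and 1.81 ± 0.15 (limma, adjusted p = 8.91e-06 and 0.000103). Both were higher in iCSC than in Sphere, by 1.79 ± 0.12 and 2.55 ± 0.15 (adjusted p = 7.92e-05 and 4.53e-05). PDLIM5, a linker of alpha-actinin, rose by 4.49 ± 0.28 in Sphere (adjusted p = 2.83e-05) and was 2.89 ± 0.28 lower in iCSC than in Sphere.

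Markers of several cell types, the tumour type included, also differed between the cultures, each list in its own way. Their part in the results above was not tested. In such bulk samples fewer cells of a type and less RNA per cell cannot be told apart. Of 10 smooth muscle markers, 5 stayed under log2 5 on all arrays, among them MYH11, ACTG2, LMOD1 and MYOCD, and 2, 3 and 4 were above it on both arrays of Monolayer, Sphere and iCSC. The log2 of the summed linear signal of this list ran from 11.59 to 11.66, 12.37 to 12.52 and 12.73 to 12.85 in the same order. Of 11 striated muscle markers 7 stayed under the limit, MYOD1, MYOG and MYF5 included, and 1, 0 and 3 were above it on both arrays. Their summed signal was 11.19 to 11.36, 6.17 to 6.18 and 8.54 to 8.91. TNNT1 of this list was called lower in Sphere and in iCSC than in Monolayer, and higher in iCSC than in Sphere. MYH3 and DES were called higher in iCSC than in either other culture. Both passed the filter only through the iCSC arrays, so these calls are no separate support. The fibroblast and pericyte list, 12 genes, had 8, 9 and 9 above the limit and summed signals of 14.74 to 14.78, 15.88 to 15.94 and 13.99 to 14.01. Of 10 adrenergic neuroblast markers, those of the labelled tumour type, 4, 9 and 8 were above the limit, with sums of 9.995 to 10.32, 15.03 to 15.30 and 12.77 to 13.00, and PHOX2A and TH were under log2 5 on both Monolayer arrays. Of 7 leukocyte markers only PTPRC exceeded the limit, with summed signals of 11.66 to 11.86, 12.43 to 12.53 and 5.17 to 5.18. The 3' to 5' difference of the ACTB control probe sets, a sign of RNA integrity, was 1.47 and 1.40 in iCSC against 1.16 to 1.25 on the other arrays. That of the GAPDH control probe sets was 0.169 and 0.204 in iCSC against 0.122 to 0.165 on the other arrays. The part of RNA integrity in the iCSC differences was not tested.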

How the data were processed

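Total RNA from 3 cultures of SK-N-AS cells was measured on Affymetrix HG-U133 Plus 2.0 arrays, 2 per culture. The authors deposited 1 log2 signal per probe set and array. GCRMA and Partek are named in the submitters' processing notes. No version or setting of either is given in the sources used here. GCRMA corrects background by probe base composition, brings arrays to a common distribution, and compresses unexpressed probe sets into a narrow low band, which overstates folds that start there. Array medians lay between 2.78 and 2.83. The number of arrays limits the precision.

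Probe sets were named through the platform annotation, and symbols were brought to RefSeq by Entrez identifier (GRCh38.p14, 41037 of 41091 single-symbol probe sets matched). Probe sets with several symbols (1801), none (11721) or control status (62) stayed out. Those at log2 5 or more on at least 2 arrays were kept (18059), and the one with the highest mean stood for each of 10459 genes. Models were fitted with limma 3.58.1 (R 4.3.3), 1 mean per culture, all 6 arrays, no covariate, moderated variances with a mean-variance trend, two-sided. Called means an adjusted p under 0.05. Where both arrays of 1 culture stayed below log2 5, folds are bounds with values under 5 set to 5, and the p-value beside them tests the values as deposited. The code was tested on simulated data. Figures used matplotlib 3.10.9.

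The genes and lists were chosen with earlier results of these data known. All 10 genes were to be named, up to 4 called genes of each other list with the largest differences, and SRF, its cofactors, ACTB, ACTG1 and close paralogs; the text gives part of them. Some list genes were not analysed here, and 1 list is not reported here. TEAD motif, CpG and probe set values were added as descriptions. Alternatives are in the closing section.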

Additional observations from a re-analysis of the deposited data

How the results depend on the processing

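Each difference was recomputed under 17 alternatives: no filter, a filter at log2 7, values under 5 set to 5, renewed quantile normalization, median centring, no mean-variance trend, no variance moderation, the replicate number as a block, only the 4 arrays compared, no x_at and s_at probe sets, the mean of all passing probe sets, and each of the 6 arrays left out, where a lone array is assumed to vary like the others. Of 348 recomputed differences, 310 kept their direction and side of the threshold, 31 lost the call, 3 gained it and 4 turned, none of them called in the main setting or after turning. The falls of TPM2, CNN2, VCL and TPM1 in Sphere and the rises of TPM2 and CNN2 in iCSC against Sphere kept their call wherever the gene was tested. For the fall of TPM2, the setting without x_at and s_at probe sets compares only values under log2 5 (difference -1.34). That call gives no fall above background. Without x_at and s_at probe sets, CNN2, TPM1 and VCL had no passing probe set. That left 4 tested genes, of which 2, 3 and 3 were called in Sphere against Monolayer, iCSC against Sphere and iCSC against Monolayer. Among all 7747 genes tested this way, 4527, 2949 and 4259 were called in the same order. In iCSC against Monolayer 2 were then higher and 1 lower, against 1 and 4 in the main setting. Medians over genes having such a probe set were -0.0039 in Sphere against Monolayer and 0.13 in iCSC against Monolayer, and TPM2 rested on 212654_at. TPM2 in iCSC against Monolayer was then 4.10 higher, and 2.15 higher by the mean of probe sets. In iCSC against Sphere 3 genes were called with no filter, without moderation and on the 4 arrays alone. Calls over all genes fell too, to 3614 of 19775, 2281 of 10459 and 3130 of 10459 in the same order. The medians of the 10 genes ran from -0.88 to -0.078 (Sphere against Monolayer), 0.043 to 0.12 (iCSC against Sphere) and -0.65 to -0.013 (iCSC against Monolayer) with 1 array left out, and were -0.021 in Sphere against Monolayer and 0 in iCSC against Monolayer with values under 5 set to 5. With 1 array left out, ACTN1 in Sphere against Monolayer ranged from -0.18 to 0.092 and TPM1 in iCSC against Sphere from -0.45 to 0.19. The turned differences were CALD1 in Sphere against Monolayer by the mean of probe sets (-0.077), ACTN1 there after renewed quantile normalization (0.034) and without Sphere replicate 1 (0.092), and TPM1 in iCSC against Sphere without Sphere replicate 2 (0.19); the cause was not tested. Over all genes, the 4022 calls of iCSC against Sphere became 2281 without moderation and 2574 without Sphere replicate 1. By direction, the 2014 higher calls of this comparison became 1318 without Sphere replicate 2, and the 2778 lower calls of iCSC against Monolayer became 1748 without Monolayer replicate 1. The replicate block left 5, 5 and 4 called genes, losing CALD1 in iCSC against Monolayer and no other call of the 10 genes. Among all 10459 genes tested with this block, 6219, 4106 and 5891 were called in the same order. Arrays of the same number deviated together only weakly (r over tested genes 0.019, 0.17 and -0.053 for Monolayer and Sphere, Sphere and iCSC, and Monolayer and iCSC), so the numbers were not taken as pairs. Levels under log2 5 limit what can be said of TAGLN, CNN1, MYL9 and of CNN2 and TPM2 in Sphere.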

Other observations

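Of the myosin II genes and their regulators, 6 of 11 were tested. The non-muscle heavy chain MYH9 changed by -1.29 ± 0.24 in Sphere and -1.55 ± 0.24 in iCSC against Monolayer (log2, SE, n = 2 arrays each; limma, adjusted p = 0.00387 and 0.00199; the first was 0.0507 without variance moderation). The heavy chain MYH10 changed by -0.91 ± 0.13 in Sphere and rose by 0.68 ± 0.13 from Sphere to iCSC (adjusted p = 0.00115 and 0.00716, the second 0.0816 without variance moderation). MYH3, a myosin of developing skeletal muscle, was at background in Monolayer and Sphere and read 7.57 and 7.24 in iCSC, at least 5.30-fold higher, and DES, the muscle intermediate filament, read 5.44 and 6.29 in iCSC and under the limit elsewhere. Of the immediate early and growth response targets of SRF, 7 of 12 were tested. Among them 2, 0 and 1 rose while 3, 3 and 3 fell in Sphere against Monolayer, iCSC against Sphere and iCSC against Monolayer. The share of all tested genes called was 59.0%, 38.5% and 55.6% in the same order. The matrix protein CCN1 fell from a Monolayer mean of 12.78 to 5.19 (Sphere) and 4.92 (iCSC) and THBS1, a matrix glycoprotein, from 11.58 to 8.06 and 6.23. Without x_at and s_at probe sets, THBS1 differed by -0.095 between iCSC and Sphere (adjusted p = 0.710), against -1.83 in its leading probe set. EGR1, a growth response factor, rose by 1.18 ± 0.37 in Sphere and 1.52 ± 0.37 in iCSC against Monolayer (limma, adjusted p = 0.0307 and 0.0127). The EGR1 calls failed without Monolayer replicate 1 (0.160 and 0.0911) or replicate 2 (0.0934 and 0.0568), the first also without Sphere replicate 2 (0.131) and the second without iCSC replicate 1 (0.0674).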
